A study of Mus musculus with 5 samples.

Results

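The Id proteins Id1, Id2 and Id3 and the E proteins Tcf3, Tcf4 and Tcf12 were followed across the cell types of spleens from mice with inv(16) acute myeloid leukaemia. They are 6 of the 32285 genes in the count matrices, found by symbol. They were picked as families, with earlier results of the same libraries known: the level of Id2 was lower in progenitor-like cells after treatment and was not lower in leukaemic cells. The members' levels in these 2 classes are therefore descriptions and carry no test. The members were tested in 5 other classes, and genes of related pathways were tested in all 7.

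Libraries were made from GFP+c-Kit+ CMM cells sorted from spleen, where CMM is the labels' name for the transplanted mouse leukaemia. All mice were C57BL/6 hosts that had received CMM cells intravenously, and treatment began once about 1% of blood cells were GFP+. In the Decoy group, CpG-STAT3dODN, a CpG oligonucleotide joined to a STAT3 decoy, was injected intravenously every other day, 3 times, and 4 libraries (Decoy 2, 3, 5 and 6) were sequenced with the 10x 3' chemistry, version 3.1. The PBS group received the saline vehicle on the same schedule and is 1 library, so it has no replicate spread of its own. The labels do not say whether libraries come from separate animals, so every p-value below reflects library-to-library variation alone, which may be technical. The ages of the mice are not given in the sources used here.

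Id proteins are helix-loop-helix proteins without the basic region that contacts DNA. They pair with E proteins and keep them from binding the E-box, the short DNA motif that E proteins recognise as dimers. In blood formation E proteins drive lymphoid programmes, and Tcf4 is needed for plasmacytoid dendritic cells. Id2 is needed for natural killer cells, innate lymphoid cells and conventional dendritic cells, and Id1 and Id3 are classical targets of bone morphogenetic protein (BMP) signalling.

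The members lie on 6 mouse chromosomes (mm10, GENCODE vM21 annotation) and are all protein-coding. Id1 (ENSMUSG00000042745) spans chr2:152736251-152737410 on the plus strand, Id2 (ENSMUSG00000020644) chr12:25093799-25097140 on the minus strand and Id3 (ENSMUSG00000007872) chr4:136143497-136145755 on the plus strand. The E protein genes are placed where they are described. A stretch of the Id2 promoter is shown because the choice of the genes rests on Id2 and because an E-box is what its partners bind. It is the first 89 of the 250 bases before the RefSeq start of Id2, at chr12:25096254-25096342 of GRCm38.p6, read on the minus strand 5′ to 3′, with its E-box (CANNTG) in capitals. The other 161 bases, nearer to that start, are annotated as untranslated exon of a longer GENCODE transcript and are not printed. In that longer transcript the printed stretch is intronic.

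Id2 upstream: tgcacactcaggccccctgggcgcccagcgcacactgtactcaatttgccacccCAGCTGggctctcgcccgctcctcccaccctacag

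The whole window of 250 bases held this 1 E-box, no STAT-type motif TTCNNNGAA and no full cAMP response motif TGACGTCA, searched on both strands. An E-box was present in 66.0% of 27025 promoter windows of the same length, the STAT-type motif in 7.18% and the cAMP response motif in 1.62%. The Tcf3 window also held 1 E-box and the Id3 window none. Of the 3 windows listed for Tcf12, 2 held 1 E-box each and 1 held none. None of these windows of Tcf3, Id3 and Tcf12 held the other 2 motifs. A match here is a description of letters, and in these windows binding was not measured.

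Levels are given as CPM, the UMIs (unique molecular identifiers, 1 per captured transcript) of a gene in a class and library, scaled to a total of 1000000 UMIs. After filtering, the 4 Decoy libraries held 1936 to 6250 cells at a median of 14005 to 36499 UMIs, and the PBS library held 16102 cells at a median of 30816 UMIs. Cells fell into 9 classes named from marker genes, and neither the 6 members nor the genes of the pathway lists described below were used to cluster them. Leukaemic cells numbered 5377, 397, 3 and 1481 in Decoy 2, 3, 5 and 6 and 14938 in PBS, so Decoy 5 gives no leukaemic value. Pooled over libraries, Xist stood at 954.5 CPM in the leukaemic class and at 3.7 to 141.3 CPM in the other 8 classes, which carried markers of other blood lineages although the labels give every library as sorted leukaemic cells. A library enters a class only with at least 50 cells. Intervals are exact 95% Poisson intervals that cover counting error only, and ± is the SD over Decoy libraries. Pairs of libraries shared 1 to 37 kept cell barcodes, at most 0.62% of the smaller library.

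**Figure D1:**
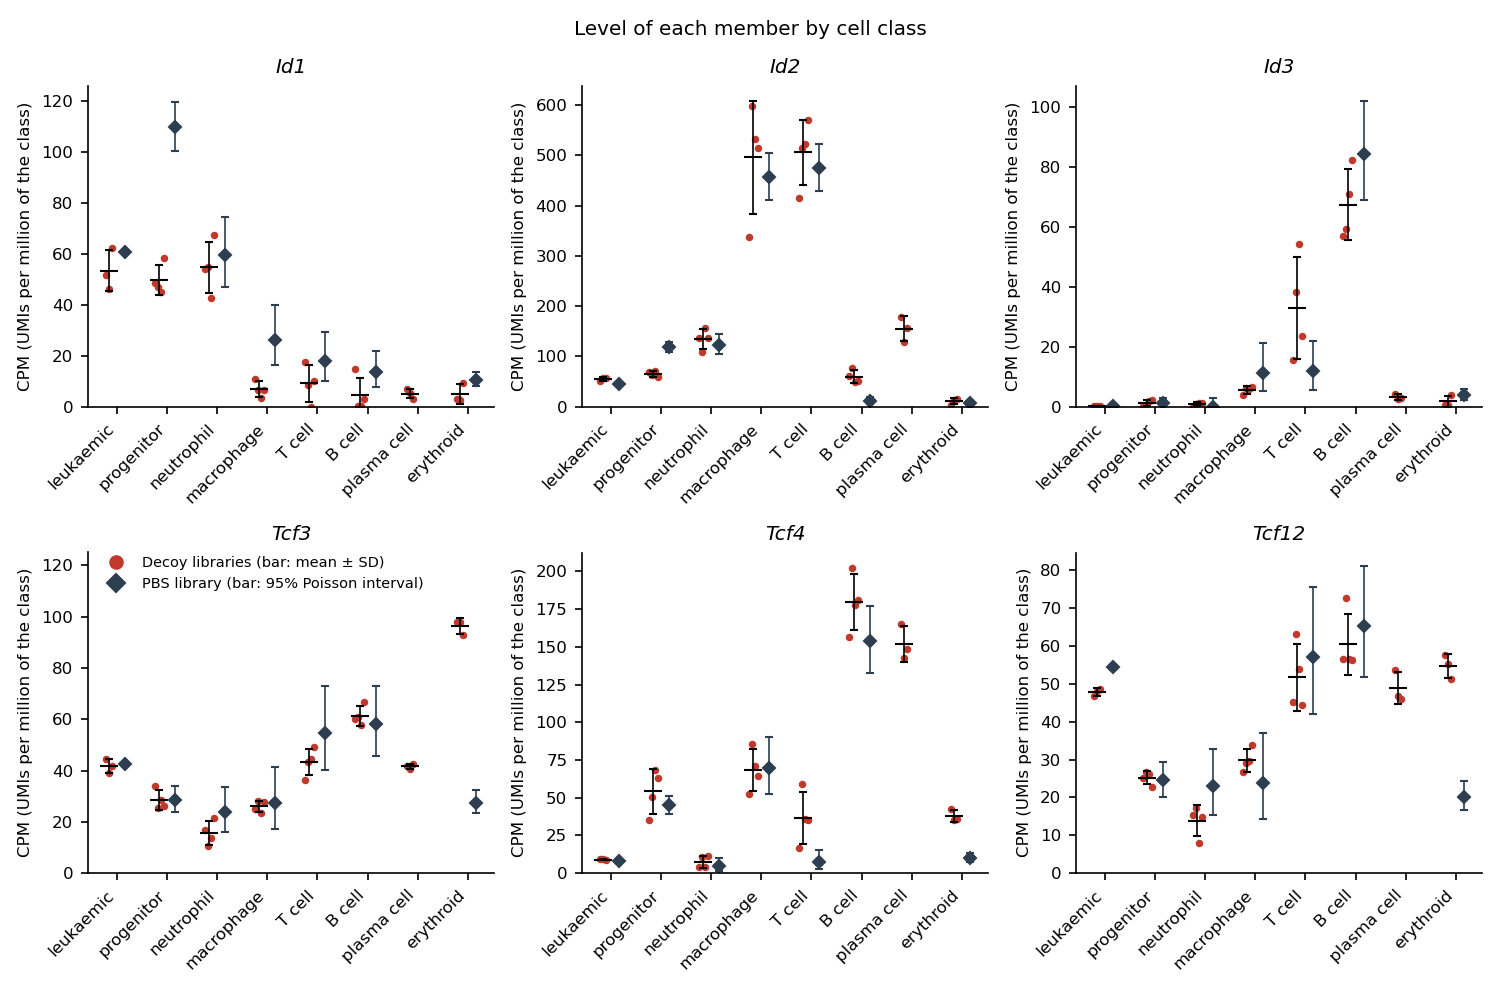
Level of each member (CPM, linear axes that differ between panels) in 8 cell classes, with Decoy libraries as points beside their mean and SD and the PBS library as a diamond with its 95% Poisson interval. Id2 reaches its highest levels in T cell-like and macrophage-like cells, Id3 in B cell-like cells, Tcf3 in erythroid-like cells of the Decoy libraries and Tcf4 in B cell-like and plasma cell-like cells.

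Among the inhibitors, Id2 stood at 4 levels across the 8 classes with at least 50 cells in a Decoy library, and the ranges of these levels did not overlap. In Decoy libraries it averaged 506 ± 65.5 CPM in T cell-like cells and 496 ± 112 CPM in macrophage-like cells (n = 4 each), and these ranges overlapped. Plasma cell-like cells followed at 155 ± 25.0 CPM (n = 3) and neutrophil-like cells at 134 ± 19.7 CPM (n = 4), again overlapping each other but not the classes above. Progenitor-like cells at 64.5 ± 5.41 CPM (n = 4), B cell-like cells at 59.1 ± 12.8 CPM (n = 4) and leukaemic cells at 54.5 ± 3.40 CPM (n = 3) came next. The B cell-like range overlapped each of the others. The progenitor-like range (58.1 to 69.9 CPM) lay above the leukaemic range (50.6 to 57.0 CPM) without overlap. Erythroid-like cells were lowest at 10.8 ± 6.21 CPM (n = 3). The plasma cell-like class also held 375 CPM of the macrophage gene C1qa and 6144 CPM of the neutrophil gene S100a8, pooled over libraries, and the part of such RNA in its Id2 level was not tested. The small conventional dendritic class, whose libraries all have fewer than 50 cells, had 1152, 1688, 1517 and 1406 CPM of Id2 in Decoy 2, 3, 5 and 6, and 994 CPM in PBS.

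In progenitor-like cells, the level of Id2 was 68.0, 62.2, 69.9 and 58.1 CPM in Decoy 2, 3, 5 and 6, from 737, 417, 1024 and 351 UMIs, and 118 CPM in PBS, from 549 UMIs (interval 108 to 128). Every Decoy library lay below PBS and the groups did not overlap. The log2 ratio of the Decoy mean over PBS was −0.87, with an SD of 0.12 over libraries. In leukaemic cells the level was 50.6, 55.9 and 57.0 CPM in Decoy 2, 3 and 6, and 45.7 CPM in PBS. Here all 3 Decoy libraries lay above PBS, by a log2 ratio of 0.25 (SD 0.09). The class value covers leukaemic clusters of both signs, which are given with those clusters. These 2 contrasts chose the gene, so neither has a test.

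Each cell was also thinned to 3000 UMIs. In progenitor-like and leukaemic cells, shares of cells with an Id2 UMI then lay on the same side of PBS as the levels. In progenitor-like cells the thinned share was 17.2%, 16.2%, 18.9% and 17.8% in Decoy 2, 3, 5 and 6, and 32.5% in PBS (Clopper-Pearson 95% interval 24.1 to 41.8%). Without thinning it was 67.6%, 62.1%, 57.4% and 61.0% in the Decoy libraries at medians of 35929 to 45917.5 UMIs, and 77.1% in PBS at a median of 34766.5 UMIs. The size of this difference depended on the thinning depth: the mean Decoy share minus the PBS share was −15.0 percentage points at 3000 UMIs and −3.43 points at 1500 UMIs. In leukaemic cells the thinned share was 13%, 14.7% and 15.5% in Decoy 2, 3 and 6, and 12.2% in PBS. Erythroid-like cells, where Id2 was lowest, had a thinned share of 1.7%, 1.9% and 4.3% in Decoy 3, 5 and 6, and 1.4% in PBS.

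**Figure D2:**
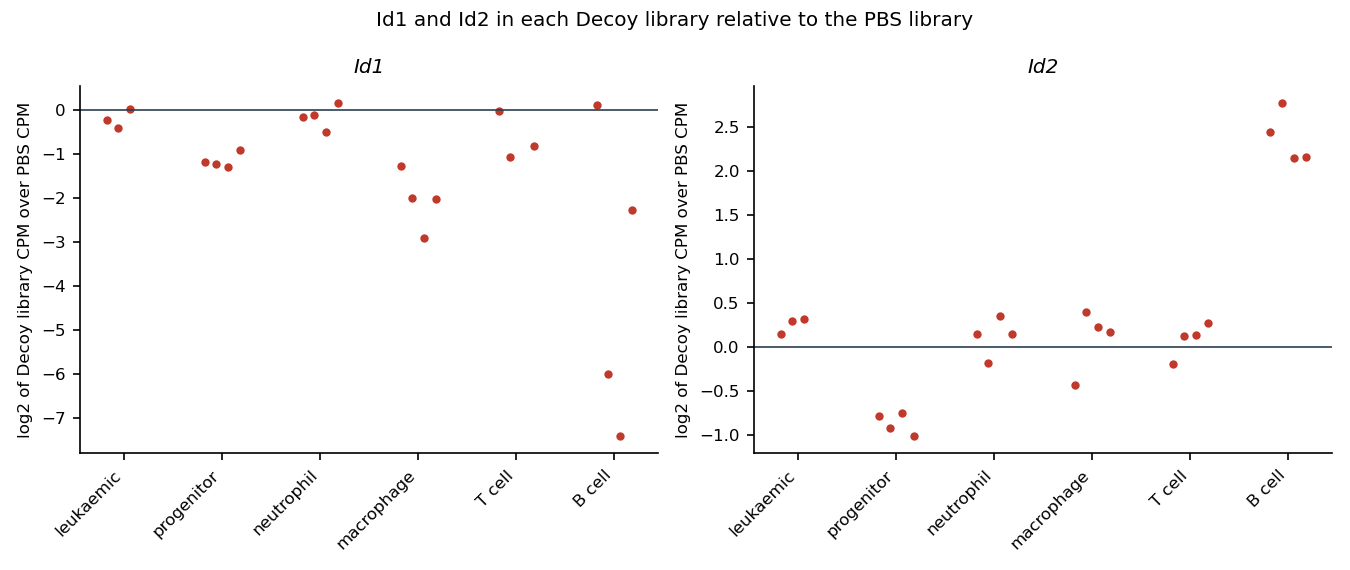
Log2 ratio of each Decoy library over the PBS library for Id1 and Id2 (vertical axis, log2 of CPM ratios) by cell class, with each point a Decoy library and libraries at 0 UMIs not drawn. Both genes lie below 0 in all 4 Decoy libraries in progenitor-like cells, and Id2 lies above 0 in all drawn libraries in leukaemic and B cell-like cells.

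The progenitor-like class held 210, 132, 352 and 159 cells in Decoy 2, 3, 5 and 6 and 118 cells in PBS, and it was mixed. It carried 8 of the granulocyte-monocyte progenitor markers and 7 of the monocyte markers, so the name stands for a range of myeloid cells rather than for progenitors alone. Subdividing it gave 9 sub-clusters, whose shares are descriptions. A sub-cluster led by Ltf and Ngp, secondary granule genes of maturing neutrophils, held 2.4%, 0%, 1.1% and 1.9% of the class in Decoy 2, 3, 5 and 6, and 44.9% in PBS. A sub-cluster led by Chil3 and Fn1, monocyte genes, held 20% to 33.3% in Decoy libraries and 2.5% in PBS. The summed level of the neutrophil markers in the class was 19979, 9373, 7341 and 13091 CPM in Decoy 2, 3, 5 and 6, and 27683 CPM in PBS.

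In cells led by Elane and Mpo, the primary granule genes of granulocyte-monocyte progenitors, Id2 was low in both groups, at 11.5 CPM in pooled Decoy cells (interval 9.8 to 13.5, 211 cells) and 16.8 CPM in PBS (9.9 to 26.5, 16 cells). In monocyte-like cells led by Apoc2 and Clec4a3, Id2 was 119.8 CPM in pooled Decoy cells (108.7 to 131.6, 139 cells) and 175 CPM in PBS (144 to 212, 31 cells). In the Ltf and Ngp cells, Id2 was 96.5 CPM in 12 pooled Decoy cells (72.7 to 125.6) and 136 CPM in 53 PBS cells (121 to 152). These intervals pool libraries and cover counting error only, so they describe the contrast that chose the gene and do not test it. Without that sub-cluster the class had a log2 ratio of −0.64, from 64.0 CPM in Decoy and 99.8 CPM in PBS, and all 4 Decoy libraries stayed below PBS. Within the Elane and Mpo cells alone the log2 ratio of library means was −0.50, and within the Apoc2 and Clec4a3 cells alone it was −0.55.

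**Figure D3:**
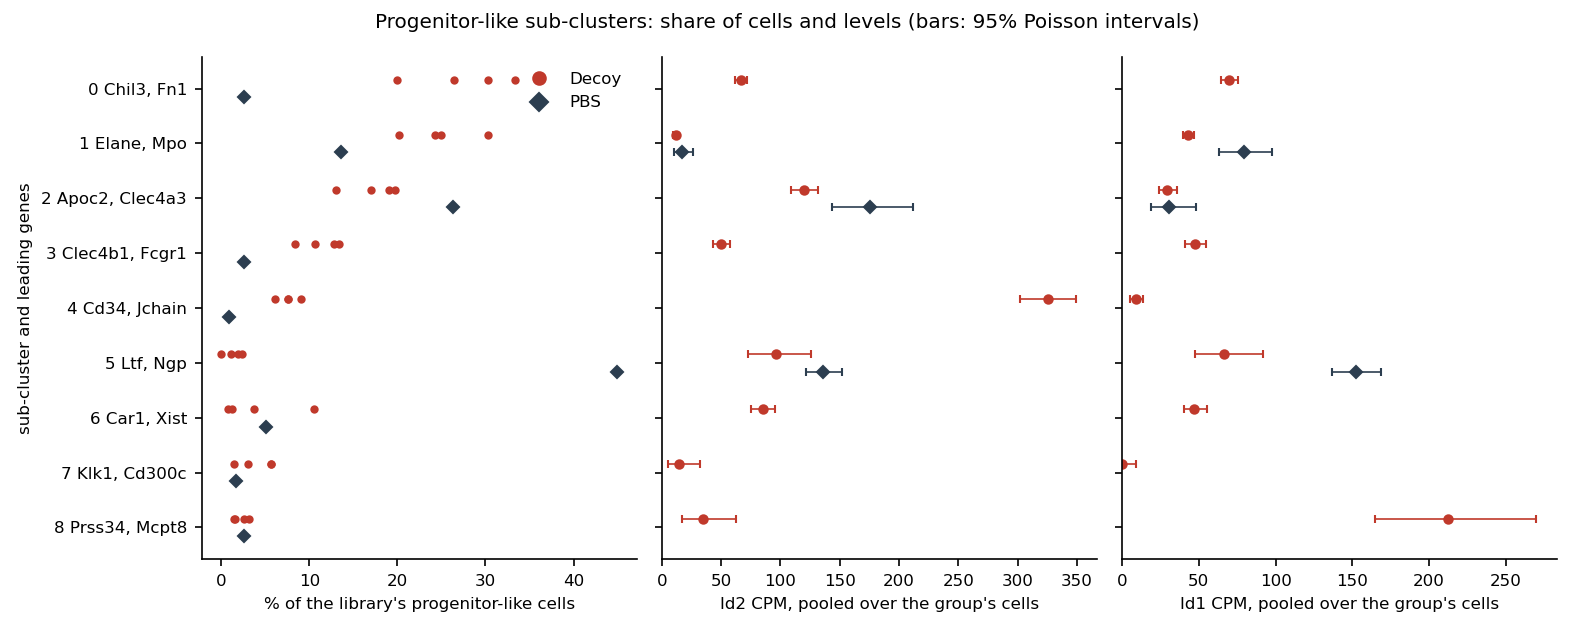
Sub-clusters of the progenitor-like class, with the share of the class that each holds per library (percent) and the pooled level of Id2 and Id1 (CPM, 95% Poisson intervals, groups of at least 10 cells). The Ltf and Ngp sub-cluster holds 44.9% of the PBS cells and at most 2.4% of any Decoy library, and Id2 is lowest in cells led by Elane and Mpo among the 3 sub-clusters drawn for both groups.

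Other sub-clusters set the extremes of the members. Cells led by Cd34 and Jchain had 325 CPM of Id2 and 164 CPM of Tcf4, pooled over 68 Decoy cells, against 1 cell in PBS. Plasmacytoid dendritic-like cells, with 8 of their markers, had 2069 CPM of Tcf4 in 36 pooled Decoy cells (interval 1931 to 2214) and 3121 CPM in 2 PBS cells, and Id1 had 0 UMIs in both. Id2 stood at 14.9 CPM in those 36 Decoy cells. Basophil-like cells led by Prss34 and Mcpt8 had the highest Id1 of the class, at 212 CPM in 20 pooled Decoy cells, and 138.1 CPM in 3 PBS cells.

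Within the leukaemic class, 1 of the 6 clusters stood apart in both Id1 and Id2. Cluster 2, with 4788 CPM of the mast cell protease gene Cpa3 (104 to 651 CPM in the others) and 35.2 CPM of the proliferation gene Mki67 (147 to 688 CPM in the others), held 16.2%, 24.4% and 26.5% of the leukaemic cells in Decoy 2, 3 and 6, and 19.8% in PBS. Its Id2 level was 145, 138 and 139 CPM in Decoy 2, 3 and 6, and 113 CPM in PBS, the highest of the 6 clusters in all 4 libraries. Id1 was lowest there in all 4 libraries, at 21.6, 22.0 and 27.0 CPM in Decoy 2, 3 and 6, and 28.0 CPM in PBS. Tcf3 was also lowest there in all 4 libraries, at 31.9, 25.1 and 26.9 CPM in Decoy 2, 3 and 6, and 31.1 CPM in PBS. The next lowest cluster had 42.3, 25.9 and 39.8 CPM in Decoy 2, 3 and 6, and 41.3 CPM in PBS, so in Decoy 3 the 2 were nearly equal. The other 5 clusters spanned 22.0 to 38.4 CPM of Id2 and 55.3 to 75.3 CPM of Id1 in PBS. The log2 ratio of Id2 was 0.32 in cluster 2 and 0.15 in cluster 1, with all 3 Decoy libraries above PBS in both. In cluster 0 it was −0.11, from 35.7 ± 3.83 CPM in Decoy (n = 3) and 38.4 CPM in PBS, and 2 of the 3 Decoy libraries lay below PBS. It was 0.54 in cluster 6 and 0.29 in cluster 15, from 2 Decoy libraries each, and −0.35 in cluster 7, from 1 Decoy library. These contrasts between clusters are descriptions of cells that were clustered on the same libraries.

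**Figure D4:**
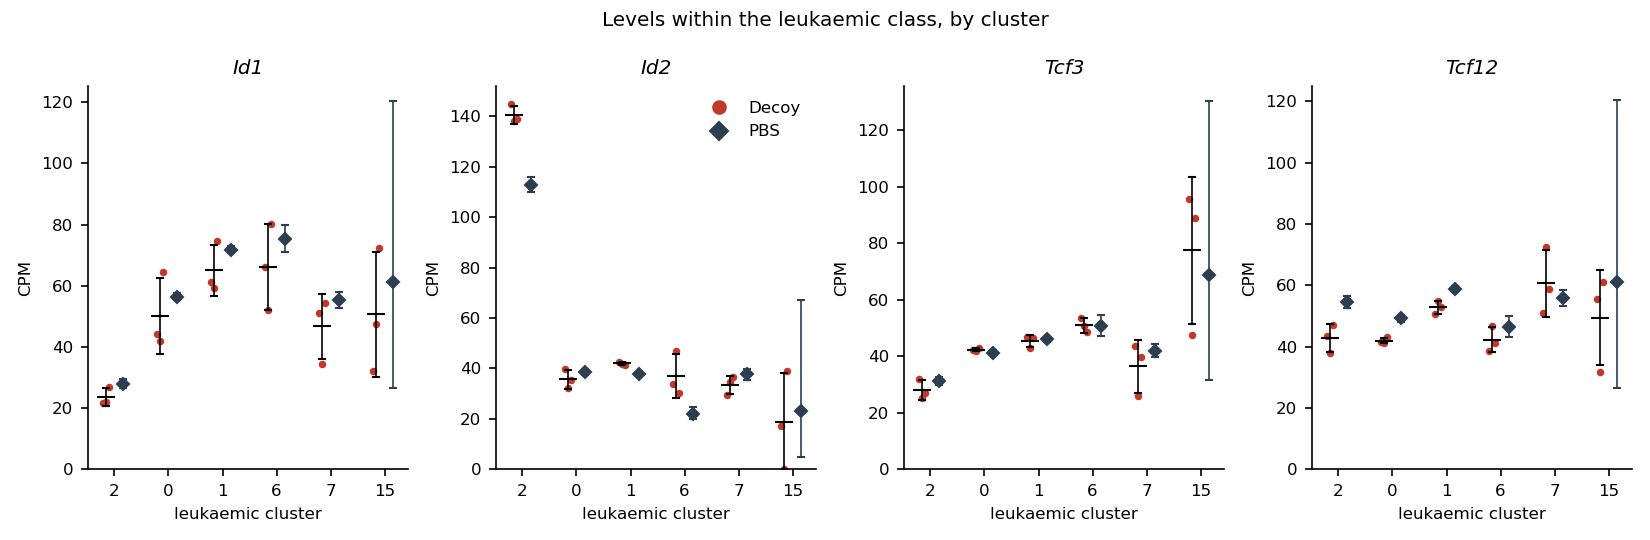
Level of Id1, Id2, Tcf3 and Tcf12 (CPM) in the 6 clusters of the leukaemic class, with Decoy libraries as points and PBS as a diamond, for groups of at least 10 cells. Cluster 2 has the highest Id2 (113 to 145 CPM) and the lowest Id1 (21.6 to 28.0 CPM) in each of the 4 libraries.

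Id1, the BMP target, was highest in neutrophil-like cells at 54.7 ± 10.1 CPM, leukaemic cells at 53.4 ± 8.06 CPM and progenitor-like cells at 49.8 ± 5.90 CPM in Decoy libraries, 3 classes whose ranges overlap. All other classes averaged 4.44 to 9.07 CPM. In progenitor-like cells Id1 stood at 48.6, 47.2, 45.1 and 58.4 CPM in Decoy 2, 3, 5 and 6, and at 109.9 CPM in PBS, with no overlap. The log2 ratio was −1.14 (SD 0.16), and without the Ltf and Ngp sub-cluster it was −0.45, from 49.5 CPM in Decoy and 67.7 CPM in PBS. Within the Elane and Mpo cells alone it was −0.81, with all 4 Decoy libraries below PBS. Within the Apoc2 and Clec4a3 cells alone it was −0.13 (SD 0.51), from 28.2 CPM in Decoy and 30.8 CPM in PBS, with 3 of 4 Decoy libraries below PBS. In leukaemic cells Id1 was 51.9, 46.3 and 62.2 CPM in Decoy 2, 3 and 6, and 60.6 CPM in PBS, which lies inside the Decoy range.

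Id3, the inhibitor best known from lymphocytes, was highest in B cell-like and T cell-like cells of the Decoy libraries. It averaged 67.5 ± 11.7 CPM in B cell-like and 33.0 ± 17.1 CPM in T cell-like cells of Decoy libraries, without overlap, and at most 5.62 CPM in every other class, plasma cell-like cells included. In PBS it was 84.4 CPM in B cell-like, 11.9 CPM in T cell-like and 11.2 CPM in macrophage-like cells. The macrophage-like PBS value rests on 9 UMIs in 2 cells. Leukaemic cells had 0.169, 0.0778 and 0.0937 CPM in Decoy 2, 3 and 6, and 0.30 CPM in PBS.

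Tcf3 (ENSMUSG00000020167) spans chr10:80409514-80433647 on the minus strand, Tcf4 (ENSMUSG00000053477) chr18:69343356-69689079 on the plus strand and Tcf12 (ENSMUSG00000032228) chr9:71842688-72111871 on the minus strand. Among these E proteins, Tcf4 was highest in B cell-like cells at 179.6 ± 18.7 CPM and plasma cell-like cells at 152 ± 11.7 CPM of Decoy libraries, which overlap, and lowest in leukaemic cells at 8.91 ± 0.48 CPM and neutrophil-like cells at 7.52 ± 3.90 CPM. In progenitor-like cells it was 35.0, 50.6, 68.5 and 62.9 CPM in Decoy 2, 3, 5 and 6, and 44.9 CPM in PBS, within the Decoy range. The log2 ratio of 0.27 (SD 0.43) changed sign with the cells included. It was 0.73 with the highest doublet scores removed and 0.62 at no more than 5% mitochondrial UMIs, with all 4 Decoy libraries above PBS in both. It was −0.28 without the Ltf and Ngp cells, with 3 of 4 Decoy libraries below PBS, and −1.5 in the Apoc2 and Clec4a3 cells alone, with all 4 below. Tcf3 averaged 96.4 ± 2.96 CPM in erythroid-like cells and 61.3 ± 3.91 CPM in B cell-like cells of Decoy libraries, and 15.7 ± 4.58 CPM in neutrophil-like cells, the lowest class. In leukaemic cells Tcf3 was 44.3, 39.2 and 41.8 CPM in Decoy 2, 3 and 6, and 42.6 CPM in PBS. Tcf12 averaged 47.8 to 60.4 CPM in B cell-like, erythroid-like, T cell-like, plasma cell-like and leukaemic cells, which overlap as neighbours, and 13.8 ± 4.11 CPM in neutrophil-like cells. Leukaemic cells had 46.7, 48.2 and 48.6 CPM of Tcf12 in Decoy 2, 3 and 6, and 54.4 CPM in PBS, a log2 ratio of −0.18 (SD 0.03) by totals and −0.10 with TMM scaling. The median ratio of all genes tested in leukaemic cells was −0.081 by totals. In progenitor-like cells Tcf3 averaged 28.5 ± 3.96 CPM in Decoy libraries (n = 4) and 28.5 CPM in PBS, and Tcf12 averaged 25.2 ± 1.71 CPM in Decoy libraries and 24.5 CPM in PBS. Among cells with no UMI of Xist, which the leukaemic class carries, Tcf3 averaged 27.7 CPM in Decoy libraries and 21.7 CPM in 83 PBS cells, with all 4 Decoy libraries above PBS (log2 0.35). In the same cells the log2 ratio was −0.99 for Id1 and −0.88 for Id2, with all 4 Decoy libraries below PBS for both. Without the Ltf and Ngp cells the log2 ratio of Tcf12 was −0.30 with all 4 Decoy libraries below PBS. In the Apoc2 and Clec4a3 cells alone, with 31 PBS cells, all 4 Decoy libraries lay above PBS for Tcf3 (0.80) and Tcf12 (0.84), and the Tcf12 value rests on 6 UMIs in PBS.

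The members were tested in the 5 other classes that had at least 50 cells in PBS, with edgeR's quasi-likelihood test on UMIs summed per library, with TMM scaling and p-values adjusted over all genes tested (threshold 0.05). Plasma cell-like cells, of which PBS had 5, and the conventional dendritic class were not tested. The fit assumes that the lone PBS library varies like the Decoy libraries.

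In B cell-like cells 0 of the 6 members passed, beside 0.162% of the 11099 genes tested (0.036% higher, 0.126% lower), and Id2 came nearest. Its level was 60.7, 76.6, 49.4 and 49.9 CPM in Decoy 2, 3, 5 and 6, from 116, 362, 628 and 230 UMIs, and 11.1 CPM in PBS, from 14 UMIs (interval 6.09 to 18.7). All 4 Decoy libraries lay above PBS and the groups did not overlap. By edgeR the fitted log2 difference was 2.44 ± 0.35 (SE), at an adjusted p of 0.0613. DESeq2 gave an adjusted p of 6.34e-05 and limma-voom 0.201, and Id2 was the 1 member with an unadjusted p under 0.05 in this class. Leaving out 1 Decoy library at a time gave an adjusted p of 0.0752 to 0.183 by edgeR, and the larger, non-cycling B cell cluster alone gave 0.0108.

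The direction was the same in both B cell clusters. In cluster 3 Id2 was 49.3, 65.1, 37.9 and 41.4 CPM in Decoy 2, 3, 5 and 6, and 9.1 CPM in PBS. In the cycling cluster 14 it was 74.1, 93.3, 71.2 and 66.9 CPM in Decoy 2, 3, 5 and 6, and 16.0 CPM in 12 PBS cells, from 6 UMIs (interval 5.88 to 34.9). Leukaemic RNA was uneven in cluster 14: the 10 mast cell and basophil markers that name the leukaemic class summed to 1036, 4.66, 3.65 and 989 CPM in Decoy 2, 3, 5 and 6, and to 1143 CPM in PBS. Xist stood there at 429, 1.55, 0 and 249 CPM in Decoy 2, 3, 5 and 6, and at 419 CPM in PBS. The B cell markers summed to 3102, 6375, 5702 and 4706 CPM in Decoy 2, 3, 5 and 6, and to 2593 CPM in PBS. The part of this RNA in the cluster's Id2 level was not tested. The thinned share of B cell-like cells with an Id2 UMI was 9.46%, 17.2%, 11% and 9.25% in Decoy 2, 3, 5 and 6, and 3.11% in PBS. Unthinned it was 32.4%, 37.7%, 26.6% and 22.2% in the Decoy libraries, at medians of 6257.5 to 9079 UMIs, and 4.88% in PBS, at a median of 3962 UMIs. The 10 macrophage markers summed to 53.3, 132, 165 and 244 CPM in the class in Decoy 2, 3, 5 and 6, and to 34.2 CPM in PBS, where Mrc1, Axl and Cd5l were at 0. The 8 monocyte markers summed to 149, 283, 214 and 168 CPM in Decoy 2, 3, 5 and 6, and to 54.9 CPM in PBS. The 11 erythroid markers summed to 1635, 59.7, 595 and 2781 CPM in Decoy 2, 3, 5 and 6, and to 15820 CPM in PBS. Among cells with no UMI of 9 macrophage, T cell and neutrophil genes the fitted log2 difference was 2.71 (adjusted p 0.0701 by edgeR).

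The other members of B cell-like cells had adjusted p-values of 0.496 to 0.918 by edgeR. Id3 had 57.0, 59.5, 71.2 and 82.5 CPM in Decoy 2, 3, 5 and 6, and 84.4 CPM in PBS. Tcf4 had 157, 203, 178 and 181 CPM in Decoy 2, 3, 5 and 6, and 154 CPM in PBS. Id1 had 14.6, 0.212, 0.0786 and 2.82 CPM in Decoy 2, 3, 5 and 6, and 13.5 CPM in PBS, beside Xist at 201, 1.1, 0 and 85.3 CPM in those Decoy libraries and 141 CPM in PBS. Libraries with more Xist in B cell-like cells had more Id1, and the part of leukaemic RNA in this was not tested.

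In macrophage-like cells 0 of the 6 members passed, beside 0% of 12849 genes. There edgeR gave 1901 genes an unadjusted p under 0.05, DESeq2 called 317 genes and limma-voom 0. Id1 had the lowest p of the members, with 10.9, 6.52, 3.50 and 6.50 CPM in Decoy 2, 3, 5 and 6, and 26.2 CPM in PBS. Its PBS value rests on 20 UMIs in 8 of the 47 cells of the larger macrophage-like cluster and 1 UMI in the 28 cells of the smaller. The groups did not overlap, and the fitted log2 difference was −2.04 ± 0.62 (SE), at an adjusted p of 0.208 by edgeR. It was the 1 member with an unadjusted p under 0.05 in this class. DESeq2 gave it no adjusted p. Id2 had 337, 599, 532 and 514 CPM in Decoy 2, 3, 5 and 6, and 456 CPM in PBS, inside the Decoy range.

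T cell-like cells likewise had 0 of 6 members past the threshold, beside 0% of 10121 genes, with 1122 genes at an unadjusted p under 0.05 by edgeR, 94 called by DESeq2 and 0 by limma-voom. Tcf4 had the largest fitted difference, with 16.6, 59.0, 35.6 and 35.3 CPM in Decoy 2, 3, 5 and 6, and 7.13 CPM in PBS (log2 2.40 ± 0.86 SE, adjusted p 0.369 by edgeR), and it alone of the members had an unadjusted p under 0.05. The 66 PBS cells of the class held 841650 UMIs of all genes, so this PBS value and that of Id3 below rest on few UMIs. Summed B cell markers in the class were 236, 1004, 845 and 717 CPM in Decoy 2, 3, 5 and 6, and 145 CPM in PBS. A sub-cluster with the B cell gene Ms4a1 held 42 Decoy cells and 0 PBS cells and had 153 CPM of Tcf4. Without it and the sub-cluster with leukaemic genes the Tcf4 log2 fold change was 0.88.

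Id3 had 15.5, 38.4, 54.4 and 23.7 CPM in the same T cell-like class in Decoy 2, 3, 5 and 6, and 11.9 CPM in PBS, with every Decoy library above PBS (log2 1.55 ± 0.84 SE, adjusted p 0.532 by edgeR). In the sub-cluster with Foxp3, the regulatory T cell factor, Id3 was 199.5 CPM in 75 pooled Decoy cells (interval 161 to 244) and 64.2 CPM in 20 PBS cells (23.6 to 139.8). Id2 had 415, 515, 522 and 571 CPM in the class in Decoy 2, 3, 5 and 6, and 474 CPM in PBS. Its sub-clusters ranged widely, with 626 CPM in pooled Decoy cells with the natural killer genes Klra8 and Ncr1. In cells led by Ly6c1 and Ccr7, a homing receptor gene of resting T cells, Id2 was 22.6 CPM in 41 pooled Decoy cells (6.2 to 58.0) and 294 CPM in 13 PBS cells (168 to 478). This sub-cluster had a median of only 4292.5 UMIs per cell. These sub-cluster intervals pool cells and libraries and cover counting error only, and no difference between the groups was tested within sub-clusters.

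**Figure D5:**
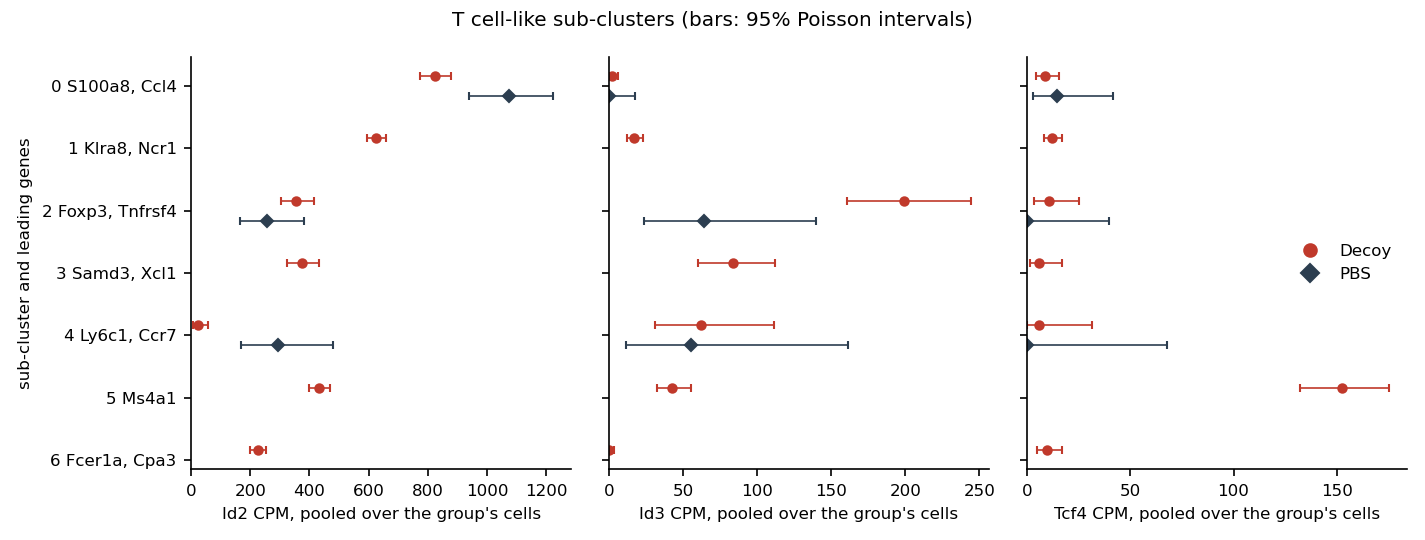
Pooled level of Id2, Id3 and Tcf4 (CPM, 95% Poisson intervals) in the sub-clusters of the T cell-like class for Decoy and PBS cells. Id3 is highest in the Foxp3 sub-cluster (199.5 CPM in Decoy, 64.2 CPM in PBS) and Tcf4 in the sub-cluster with B cell genes, which has no PBS cells.

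In neutrophil-like cells 0 of the 5 members that passed the filter on low counts were called and none had an unadjusted p under 0.05, beside 0% of 9568 genes called, with 906 genes at an unadjusted p under 0.05 by edgeR, 55 called by DESeq2 and 0 by limma-voom. Id3 did not pass the filter. Id1 had 53.9, 55.0, 42.6 and 67.3 CPM in Decoy 2, 3, 5 and 6, and 59.6 CPM in PBS, and its log2 difference was −0.12 scaled by totals and 0.12 with TMM. Tcf12 had 15.3, 17.3, 7.86 and 14.9 CPM in Decoy 2, 3, 5 and 6, and 22.9 CPM in PBS, with every Decoy library lower (adjusted p 0.648 by edgeR).

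In erythroid-like cells 3 of the 6 members passed, beside 45.4% of 10734 genes (19.9% higher, 25.5% lower), so the members' share lies near that of all genes. Decoy 2, with 43 such cells, was not in this fit. The class is not alike in the groups: 511 of the 588 PBS cells were in a haemoglobin-rich cluster, while 123, 390 and 137 of the Decoy 3, 5 and 6 cells were in a cluster with the erythroid progenitor genes Car1 and Klf1. The median log2 ratio of all genes by totals was 1.27, so TMM-scaled levels are compared here. Id1 averaged 4.02 TMM-scaled CPM in Decoy and 19.8 in PBS and fell by 2.40 ± 0.69 on the log2 scale (SE, adjusted p 0.0275 by edgeR). In PBS it rested on 44 UMIs in 7 of the 77 Car1 and Klf1 cells and 14 UMIs in the 511 haemoglobin-rich cells. In the Car1 and Klf1 cluster 9.09% of PBS cells had an Id1 UMI, and 25.6%, 5.69%, 8.97% and 20.4% in Decoy 2, 3, 5 and 6. Medians there were 8212 UMIs in PBS and 51331.5 to 65393 in Decoy. Thinned to 3000 UMIs, the share was 6.67% in PBS and 0.847%, 0.548% and 2.22% in Decoy 3, 5 and 6. Tcf3 averaged 78.2 TMM-scaled CPM in Decoy and 51.7 in PBS and rose by 0.60 ± 0.11 (SE, adjusted p 0.00434 by edgeR). Tcf4 averaged 30.8 TMM-scaled CPM in Decoy and 18.8 in PBS and rose by 0.70 ± 0.18 (SE, adjusted p 0.0161 by edgeR). By totals Tcf3 had 98.1, 98.0 and 92.9 CPM in Decoy 3, 5 and 6, and 27.5 CPM in PBS. The fit within the Car1 and Klf1 cluster also took in Decoy 2, with 43 cells, so its libraries differ from those of the class fit. None of these 3 passed there, with adjusted p-values of 0.0545 for Id1, 0.0774 for Tcf3 and 0.905 for Tcf4 by edgeR. The fitted log2 differences there were −2.48 ± 0.69 (SE) for Id1 and 0.52 ± 0.16 for Tcf3, near those of the whole class, and 0.059 ± 0.19 for Tcf4. In that cluster Tcf3 had 80.1, 98.4, 98.1 and 93.9 CPM by totals in Decoy 2, 3, 5 and 6, and 63.5 CPM in PBS.

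Of 5 lists of related genes, 3 genes in all were called by edgeR outside the erythroid-like class. The lists, which were chosen with earlier results of these libraries known, cover 13 partners of E proteins, 21 genes of BMP and TGF-beta signalling, 22 lymphoid targets of E proteins, 12 plasmacytoid targets of Tcf4 and 15 other E-box factors. In B cell-like cells 1 of the 13 lymphoid targets tested was called lower, beside 0.126% of all genes called lower. It was Vpreb3, a gene of B cell precursors, with 57.7, 63.0, 64.2 and 78.4 TMM-scaled CPM in Decoy 2, 3, 5 and 6, and 244 in PBS (log2 −1.88 ± 0.17 SE, adjusted p 0.0205 by edgeR). It was not called without Decoy 3 (adjusted p 0.0826 by edgeR) or without Decoy 5 (0.0939). The median log2 difference in the class was −0.35 over the 10 partners tested, −0.50 over the 16 signalling genes, −0.23 over the 13 lymphoid targets, 0.29 over the 10 plasmacytoid targets with 1 gene at its bound, and 0.035 over the 12 other factors, beside −0.0033 over all genes.

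In progenitor-like cells 1 of the 20 signalling genes tested was called higher, beside 0.625% of all genes called higher and 1.25% of the 11365 tested called in either direction. It was Eng, a BMP and TGF-beta co-receptor, with 8.44, 10.3, 12.6 and 7.27 TMM-scaled CPM in Decoy 2, 3, 5 and 6, and 1.08 in PBS, from 5 UMIs (log2 3.15 ± 0.51 SE, adjusted p 0.0462 by edgeR). Its call was lost without Decoy 3, 5 or 6 (adjusted p 0.114, 0.0710 and 0.0572 by edgeR) and with limma-voom (0.316). All 10 plasmacytoid targets tested in this class had a positive log2 difference and none was called, with a median of 0.57 beside 0.01 over all genes. Irf8 averaged 331 TMM-scaled CPM in Decoy and 151 in PBS (adjusted p 0.068 by edgeR). The plasmacytoid dendritic-like sub-cluster held 36 Decoy cells and 2 PBS cells, and its part in this was not tested. The Ltf and Ngp sub-cluster held 53 of the 118 PBS cells and 5, 0, 4 and 3 cells in Decoy 2, 3, 5 and 6. Pooled over libraries, Irf8 was 118 CPM there. It was 289, 348 and 210 CPM in the sub-clusters led by Chil3 and Fn1, Elane and Mpo, and Apoc2 and Clec4a3. The part of these unequal shares in the Eng call and in the Irf8 and list values was not tested. The 18 lymphoid targets tested had a median of 1.5 with genes at 0 in one group set at their bound of 3 counts, and none was called.

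In leukaemic cells 1 of the 8 plasmacytoid targets tested was called higher, beside 0.674% of all genes called higher, 0.0556% called lower and 0.73% of the 14390 tested called in all. It was Irf7, an interferon regulatory factor that is itself interferon-induced, with 7.61, 15.1 and 9.57 TMM-scaled CPM in Decoy 2, 3 and 6, and 2.89 in PBS (log2 1.82 ± 0.29 SE, adjusted p 0.0210 by edgeR). None of the 10 partners of E proteins tested there was called, and Lmo2 averaged 176 TMM-scaled CPM in Decoy and 155.5 in PBS. The median log2 difference over the plasmacytoid targets was 0.82, beside 0.0040 over all genes, and the other 4 lists had medians of 0.059 to 0.23. In macrophage-like, T cell-like and neutrophil-like cells no gene of any list was called by edgeR, beside 0% of all genes in each. Irf7 was higher than PBS in every Decoy library of these 3 classes too, and in 3 of 4 in B cell-like cells, where Decoy 3 had 7.82 TMM-scaled CPM and PBS 11.7 (log2 0.31, adjusted p 0.867 by edgeR). It averaged 290 TMM-scaled CPM in Decoy and 141 in PBS in macrophage-like cells, where DESeq2 called it higher (log2 1.01, adjusted p 0.000964) and edgeR gave an adjusted p of 0.109. In neutrophil-like cells it averaged 73.4 TMM-scaled CPM in Decoy and 24.7 in PBS (DESeq2 log2 1.59, adjusted p 0.0380; edgeR adjusted p 0.394). In T cell-like cells it averaged 25.9 TMM-scaled CPM in Decoy and 5.73 in PBS, and its adjusted p was 0.286 by edgeR and 0.276 by DESeq2. In erythroid-like cells it was called lower, at 46.4 TMM-scaled CPM in Decoy and 137 in PBS (log2 −1.55 ± 0.17 SE, adjusted p 0.000471 by edgeR), and within the Car1 and Klf1 cluster alone the log2 difference was 0.84 (adjusted p 0.176 by edgeR). With genes at 0 in one group set at their bound, the lymphoid targets had a median log2 difference of 1.08 in macrophage-like, 0.52 in T cell-like and 1.21 in neutrophil-like cells, and the plasmacytoid targets 0.23, 0.86 and 0.90, beside 0.098, 0.017 and −0.0039 over all genes. In erythroid-like cells 2 partners were called higher and 6 lower of 10 tested, among them Tal1, which averaged 96.3 TMM-scaled CPM in Decoy and 254.6 in PBS. Of the signalling genes 2 were called higher and 4 lower of 16, of the lymphoid targets 1 and 1 of 8, of the plasmacytoid targets 1 and 1 of 4 and of the other factors 1 and 4 of 10, beside 19.9% of all genes called higher and 25.5% lower.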

How the data were processed

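Single-cell 3' RNA libraries were deposited as 1 gene-by-barcode matrix of UMI counts per library. Per the file headers these counts came from Cell Ranger 5.0.0, and the submitters' processing notes name Cell Ranger 3.1, Seurat 4, DESeq2 and mm10; the deposited counts are not normalised.

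Barcodes under 500 genes, under 1000 UMIs or above 10% mitochondrial UMIs were dropped. The mitochondrial limit alone removed 5.94%, 12.3%, 16.2% and 11.2% of the barcodes of Decoy 2, 3, 5 and 6 and 8.34% of those of PBS. Scrublet, run per library, marked 0.0291%, 0.204%, 0% and 0.107% of cells in Decoy 2, 3, 5 and 6 and 5.98% in PBS. Marked cells were removed. Shares that low were taken as a caller that had not worked in the Decoy libraries, where doublets may remain, and removing the highest scores at the expected rate in every library was an alternative. Cells were clustered with scanpy 1.11.5 (2000 variable genes, 30 components, 15 neighbours, Leiden resolution 0.5), leaving out the 6 members, the pathway genes and mitochondrial and ribosomal protein genes. Clusters with a correlation of at least 0.85 were merged, a limit chosen after the clusters were seen. Names needed at least 3 markers. A few pathway genes (Cd79a, Cd79b, Pax5, Cd3e, Siglech, Ccr9, Pacsin1 and Spib) are also naming markers.

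UMIs were summed per class and library where a class had at least 50 cells. Decoy 2 entered restricted fits with fewer cells, 43 in the Car1 and Klf1 cluster and 37 in the B cell-like cells free of other lineages' genes. Reported levels (CPM) are counts scaled to a total of 1000000. Tests used edgeR 4.0.16 (quasi-likelihood, filterByExpr, TMM, two-sided, Benjamini-Hochberg) on R 4.3.3, with DESeq2 1.42.0 and limma 3.58.1 as alternatives, and were tried on simulated counts. Library totals after filtering were 232638967, 54619420, 80908405 and 83560601 UMIs in Decoy 2, 3, 5 and 6 and 514739694 in PBS.

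The members, the gene lists and the markers were chosen with earlier results of these data known. All 6 members are named in every class. Of each list, up to 4 called genes per class with the smallest adjusted p are eligible to be named, or the 2 with the highest level where none is called. For each member the 3 genes most alike by correlation are named. Besides other settings (scaling, filters, thresholds, resolutions, doublet removal, thinning depth, other tests, each Decoy library left out), 8 more were chosen after seeing the data. They restrict the progenitor-like, B cell-like, T cell-like and erythroid-like classes to some of their clusters or cells.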

Additional observations from a re-analysis of the deposited data

Results flagged for a closer look

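Of 30 combinations of a member and a class with 4 Decoy libraries, 1 had a library set apart from the others by Dixon's criterion, where chance marks about 1 in 20. It was Tcf12 in B cell-like cells, at 72.6 CPM in Decoy 3 and 56.2 to 56.5 CPM in the other 3 Decoy libraries.

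Next come pairs of classes in which, with levels scaled by totals, every Decoy library lay on one side of PBS in one class and on the other side in the second. No difference between classes was tested. For Id2 the log2 ratio of Decoy over PBS was 0.25 in leukaemic and −0.87 in progenitor-like cells, a difference of 1.12, and this pair of contrasts chose the gene. In B cell-like cells it was 2.41, which is 3.28 above the progenitor-like value. For Id3 the ratio was 1.47 in T cell-like cells, which is 2.88 above the leukaemic value of −1.40, 2.47 above the macrophage-like value of −0.996 and 1.79 above the B cell-like value of −0.32. The leukaemic Id3 levels are under 1 CPM. In PBS macrophage-like cells Id3 rests on 9 UMIs in 2 cells of the larger cluster and 0 UMIs in the smaller. The PBS T cell-like value comes from 66 cells with 841650 UMIs of all genes, so it too rests on few UMIs. For Tcf12 the ratio was 0.33 in macrophage-like cells, which is 0.52 above the leukaemic value of −0.18 and 1.06 above the neutrophil-like value of −0.73. The macrophage-like PBS value rests on 19 UMIs, all in the larger cluster, where the PBS interval was 15.4 to 40.0 CPM. Decoy libraries had 27.3 to 34.35 CPM in that cluster, inside this interval.

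In erythroid-like cells the ratios by totals were 1.81 for Tcf3 and 1.44 for Tcf12. The Tcf3 value is 2.40 above the neutrophil-like value of −0.59 and 2.15 above the T cell-like value of −0.34, and the Tcf12 value is 1.62 above the leukaemic and 2.16 above the neutrophil-like value. The median over all genes by totals was 1.27 in erythroid-like, −0.25 in neutrophil-like, −0.057 in T cell-like and −0.081 in leukaemic cells. With TMM scaling the Tcf3 differences were 0.95 and 0.86, and the Tcf12 differences 0.32 and 0.72. Within the erythroid cluster with Car1 and Klf1, ratios by totals use the 3 Decoy libraries with at least 50 cells. The ratio was 0.61 for Tcf3, with all 3 above PBS, and −0.12 for Tcf12, with all 3 below. Tcf12 thus did not keep its direction there.

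With TMM scaling 2 of these pairs no longer had every library on opposite sides. In B cell-like cells Id3 was 84.9 TMM-scaled CPM in Decoy 6 and 82.4 in PBS, and in neutrophil-like cells Tcf3 was 21.0 TMM-scaled CPM in Decoy 6 and 20.7 in PBS.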

How the results depend on the processing

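The log2 ratio of Id2 in progenitor-like cells was negative in every Decoy library that entered, under every alternative tried. This contrast chose the gene, so the alternatives describe it and do not test it. The ratio was −0.87 in the reported value, −0.56 at resolution 0.3 and −0.62 as a mean over cells. With the highest doublet scores removed at the expected rate in every library it was −0.75. It was −0.50 in Elane and Mpo cells alone (SD 0.43, from 18 UMIs in 16 PBS cells) and −0.55 in Apoc2 and Clec4a3 cells alone. Without Ltf and Ngp cells it was −0.64, and leaving out 1 library at a time gave −0.91 to −0.82. The cause of these shifts was not tested. The thinned share with an Id2 UMI, Decoy minus PBS, was −15.0 percentage points at 3000 UMIs and −3.43 at 1500 UMIs in progenitor-like cells, and 2.23 and 0.73 points in leukaemic cells.

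Counts of called genes moved widely. Macrophage-like cells had 0 calls, 63 without the filter on low counts, 317 with DESeq2 and 0 to 280 leaving out 1 library, the 280 being without Decoy 2. B cell-like cells had 18, 85 without the filter, 200 with DESeq2, 49 with limma-voom, 114 in cells free of other lineages' genes, 355 without the cycling cluster and 0 to 27 leaving out 1 library. T cell-like cells had 0, 37 without the filter, 94 with DESeq2, 39 without the B cell and leukaemic sub-clusters and 0 to 118, the 118 being without Decoy 2. Neutrophil-like cells had 0, 24 without the filter, 55 with DESeq2 and 0 to 4. Erythroid-like cells had 4877, and 1266 in the Car1 and Klf1 cluster alone. Progenitor-like cells had 142, 314 without the filter, 388 with DESeq2 and 17 to 645. Leukaemic cells had 105, 576 without the filter, 265 with DESeq2, 272 with limma-voom and 215 to 646. 

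Of the members' tested fold changes under alternatives, 228 kept direction and, where an adjusted p was given, side of the threshold. Another 7 passed it anew, 5 lost it and 7 changed sign. The sign changes were Tcf4 in macrophage-like cells leaving out 1 library (−0.15 to 0.072, positive without Decoy 2), Tcf3 (−0.16) and Tcf12 (0.044) in B cell-like cells free of other lineages' genes, Id2 in T cell-like cells without the 2 sub-clusters (−0.056), Tcf12 in T cell-like cells leaving out 1 library (−0.15 to 0.00032, positive without Decoy 6), and Id2 (0.32) and Tcf12 (−0.17) in the Car1 and Klf1 cluster. None of these values was past the threshold. No paired analysis was possible because the groups share no replicate numbers.

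The single PBS library limits every comparison, since a difference of that library from the others cannot be told apart from the treatment. PBS cells are few in several classes, with 66 T cell-like, 68 neutrophil-like and 75 macrophage-like cells.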

Other observations

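Genes with patterns most like each member's were ranked by Pearson's r of log2(CPM + 1) over 36 sums of a class in a library, covering 8 classes and 5492 genes with a mean of at least 20 CPM. The sums of a library share its depth and its free RNA, so the values are descriptions. For Id1 the nearest were Ero1l (r = 0.87), S100a1 (0.86) and Rgs18 (0.83), and for Id2 they were Prex1 (0.91), Rnf166 (0.89) and Nabp1 (0.88). For Id3 they were BE692007 (0.92), Cd83 (0.91) and Gm8369 (0.91). For Tcf3 they were Hmgn1 (0.90), Tfam (0.89) and Eif3m (0.88), and for Tcf12 they were Hmgn1 (0.93), Zfp280d (0.92) and Tasor2 (0.92), so Hmgn1, a nucleosome-binding protein gene, came first for both. For Tcf4 they were Ddt (0.89) and the MHC class II genes H2-Ab1 (0.88) and H2-Eb1 (0.88).

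In the larger of the 2 macrophage-like clusters Id2 had 336, 601, 533 and 514 CPM in Decoy 2, 3, 5 and 6, and 469 CPM in PBS. In the smaller cluster it had 357, 397, 497 and 511 CPM in Decoy 2, 3, 5 and 6, and 297 CPM in PBS. Both clusters had fewer than 50 PBS cells.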
